A study of Homo sapiens with 2 samples.

Results

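The genes described here encode the proximal signalling module of the B cell receptor: CD79A, CD79B, CD22, CD72, SYK, BTK, BLNK, PLCG2 and PRKCB. They were chosen by name, with earlier results of these data known, and are not every gene of the pathway. Each has a probe set annotated to that gene alone, and all 9 were found among the 14232 genes with such a value. Other genes of the pathway, LYN among them, are described in separate lists. Where a gene had several probe sets of its own, the one with the higher mean of both arrays was taken. The study measured baseline RNA in SUDHL6 and HT, established human cell lines of diffuse large B cell lymphoma, on 1 exon array each. Both lines were untreated and grown in RPMI GlutaMAX medium with fetal bovine serum, penicillin and streptomycin. Each line is represented by 1 array, so a difference between SUDHL6 and HT is a difference between those 2 arrays. It could not be set against a spread between replicates, and no test was made.

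The B cell receptor consists of membrane immunoglobulin and the CD79A and CD79B signalling chains. When antigen binds, tyrosines in the cytoplasmic tails of CD79A and CD79B are phosphorylated and recruit the kinase SYK, which phosphorylates the adaptor BLNK. BLNK brings the kinase BTK together with the phospholipase PLCG2, whose products release calcium and activate PRKCB, the protein kinase C beta that leads to NF-kB. CD22 and CD72 are inhibitory surface receptors that recruit the phosphatase encoded by PTPN6 and dampen the signal. Several of these proteins are drug targets in B cell lymphoma, BTK and CD79B among them.

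Levels are the deposited log2 values after RMA, which subtracts background, scales the arrays to each other and combines the probes of each probe set. Levels of different genes come from different probes and were not compared with each other. A dim level was set in each line at the 95th percentile of 225 olfactory receptor genes, taken here as genes that B cells do not express. It was 3.81 in SUDHL6 and 4.11 in HT. Differences are SUDHL6 minus HT on the log2 scale. A difference of 1 or more in size was counted, provided that the larger of the 2 values was at or above its line's dim level. The larger value was at or above that level for 9405 genes, and 12.3% of them differed by this rule, which is 8.12% of all 14232 genes. The differences of the 225 olfactory receptor genes lay between -1.03 and 1.26 in the central 95%. Outside it, 1 olfactory receptor gene differed by more than 2 in size, by 4.61. The median of all probe sets was 4.57 in SUDHL6 and 4.58 in HT.

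Of the 9 receptor signalling genes, the inhibitory receptor gene CD72 and the kinase gene PRKCB were higher in SUDHL6, and none was higher in HT by that rule. The other 7 genes, which encode the receptor chains, CD22 and the chain of enzymes and adaptors between them and PRKCB, differed by less than 1, between -0.57 and 0.58. All 9 genes reached the dim level in SUDHL6, and 7 reached it in HT. The exceptions in HT were CD72 and PRKCB. The count of 2 in 9 stands beside the 12.3% of all genes that reached the dim level, where 5.3% (498 genes) had SUDHL6 higher and 6.99% (657 genes) had HT higher. This order depended on scaling, since quantile normalization gave 576 genes higher in SUDHL6 and 568 in HT, and loess gave 584 and 562. No test was made of the 9 genes against the rest.

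**Figure D1:**
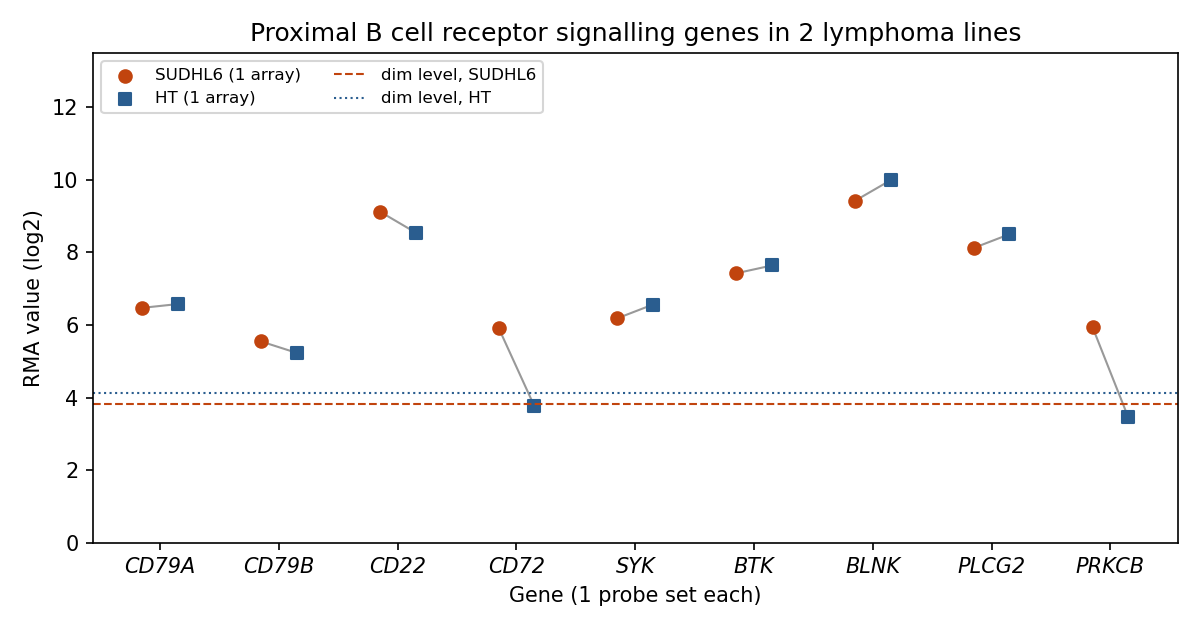
Log2 RMA values of the 9 receptor signalling genes on the SUDHL6 array (circles, left) and the HT array (squares, right), joined by a line for each gene, with the dim level of each line as a horizontal line. CD72 and PRKCB lie below the dim level in HT, at 3.76 and 3.46, and the other 7 genes lie above it in both lines.

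The sequence just upstream of the start site is shown for the genes on which the comparison turns, PRKCB and CD72, and for CD79A as a receptor chain that differed little. The 250 bases before the start site, read 5′ to 3′ on the strand of the gene, were taken from RefSeq promoters of GRCh38.p14, which were found for 8 of the 9 genes (11 start sites). The window of PRKCB lies at chr16:23835733-23835982 on the plus strand and that of CD72 at chr9:35618414-35618663 on the minus strand. The window of CD79A lies at chr19:41877029-41877278 on the plus strand. Capitals mark matches, on either strand, to motifs of B cell transcription factor families: the octamer ATGCAAAT, the ETS motif AGGAAGT and the E-box CAGCTG.
PRKCB: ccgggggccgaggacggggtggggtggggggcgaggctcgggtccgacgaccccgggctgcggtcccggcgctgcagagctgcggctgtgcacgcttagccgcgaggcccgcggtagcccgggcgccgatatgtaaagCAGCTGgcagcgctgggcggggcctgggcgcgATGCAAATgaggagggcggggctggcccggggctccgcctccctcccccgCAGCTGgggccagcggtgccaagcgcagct
CD72: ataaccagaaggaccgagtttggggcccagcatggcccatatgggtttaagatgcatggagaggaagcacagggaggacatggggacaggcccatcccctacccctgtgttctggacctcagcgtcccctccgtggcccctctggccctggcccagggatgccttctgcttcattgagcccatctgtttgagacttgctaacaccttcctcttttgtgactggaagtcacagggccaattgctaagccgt
CD79A: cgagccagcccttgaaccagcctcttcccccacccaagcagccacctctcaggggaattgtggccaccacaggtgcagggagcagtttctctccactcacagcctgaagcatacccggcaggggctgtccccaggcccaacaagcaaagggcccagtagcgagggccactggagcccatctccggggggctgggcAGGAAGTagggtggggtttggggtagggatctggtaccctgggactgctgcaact
The window of PRKCB held 1 octamer, 80 to 73 bases before the start site, and an E-box on each side of it, at 112 to 107 and at 30 to 25 bases. The octamer was found in 1.63% of 35116 RefSeq promoter windows of this length and the E-box in 4911 of those windows. None of these motifs was in the CD72 window. CD79A held 1 ETS motif, 55 to 49 bases before the start site, a motif found in 7.01% of windows. Among the genes whose windows are not printed, the ETS motif was also present for BTK, BLNK and SYK, and the E-box for BLNK and PLCG2. For SYK the ETS motif was only in the window of start site 2, and for BTK only in that of start site 1. Over the 11 start-site windows, the octamer was in 1, the ETS motif in 4 and the E-box in 3. No motifs in capitals overlap each other. A match describes the letters of the window and does not show that a factor bound there, and the arrays did not measure binding.

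The signalling chains of the receptor had close values in the 2 lines. CD79A, which carries one of the phosphorylated tails, measured 6.47 in SUDHL6, against 6.58 in HT, a difference of -0.10. The sign of this small difference depended on scaling, at 0.01 after quantile normalization and 0.02 after loess. CD79B, its partner in the heterodimer, measured 5.55 in SUDHL6, against 5.23 in HT, a difference of 0.31 that is 1.24-fold. For comparison, the differences of the 9405 genes had a 25th percentile of -0.38 and a 75th of 0.22, so CD79A lay inside this range and CD79B just above it.

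Both inhibitory receptors had the larger value in SUDHL6, by unequal amounts. CD22, a sialic acid-binding lectin of the B cell surface, measured 9.13 in SUDHL6, against 8.55 in HT, a difference of 0.58, or 1.49-fold higher in SUDHL6. CD22 had another probe set of its own, at 5.73 in SUDHL6 and 5.70 in HT, with a difference of 0.03. The excess of CD22 in SUDHL6 was therefore carried by 1 of its 2 probe sets. CD72, a lectin-like receptor that binds CD100, stood at 5.92 in SUDHL6 and 3.76 in HT. The HT value was below the dim level, so CD72 was at least 3.49-fold higher in SUDHL6, on a log2 difference of 2.15. A further probe set is annotated to both TESK1 and CD72, and there the values were 6.55 in SUDHL6 and 6.17 in HT, with a difference of 0.38. TESK1 is a kinase gene, and the shared probe set cannot tell its RNA and that of CD72 apart. With that probe set in place of its own, CD72 would not be counted as different.

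The kinases and the adaptor that act next all had the lower value in SUDHL6, by less than 1. SYK, the kinase that docks on the phosphorylated receptor chains, measured 6.19 in SUDHL6, against 6.56 in HT, a difference of -0.38. BTK, the Tec family kinase whose loss causes X-linked agammaglobulinaemia, measured 7.43 in SUDHL6, against 7.64 in HT, a difference of -0.22. BLNK, the adaptor that links SYK to PLCG2, measured 9.43 in SUDHL6, against 9.99 in HT, a difference of -0.57, or 1.48-fold higher in HT. Each of these genes was above the dim level in both lines, and none reached a 1.5-fold difference.

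The enzymes at the end of the module differed from each other. PLCG2, the phospholipase that makes inositol trisphosphate and diacylglycerol, measured 8.13 in SUDHL6, against 8.50 in HT, a difference of -0.38. PRKCB, which diacylglycerol and calcium activate, measured 5.94 in SUDHL6, against 3.46 in HT, a difference of 2.48. The HT value of PRKCB was below the dim level, and the gene was at least 3.54-fold higher in SUDHL6. PRKCB had 1 probe set, so no further probe set could be compared. The dim level is no detection call, so PRKCB and CD72 cannot be called silent in HT. In bulk RNA, fewer cells with a transcript and less of it per cell cannot be told apart.

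With the HT values raised to the dim level, the difference was 1.82 for PRKCB and 1.80 for CD72, so both still counted and the order of the pair is not established. Of the 9 receptor signalling genes, 4 lay inside that range of -0.38 to 0.22 (CD79A, SYK, BTK and PLCG2) and 5 outside. The median of the 9 was -0.10, beside -0.05 for the genes above the dim level, and 4 genes had the larger value in SUDHL6 and 5 in HT. After quantile normalization or loess, which turned the sign of CD79A, these counts were 5 and 4.

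**Figure D2:**
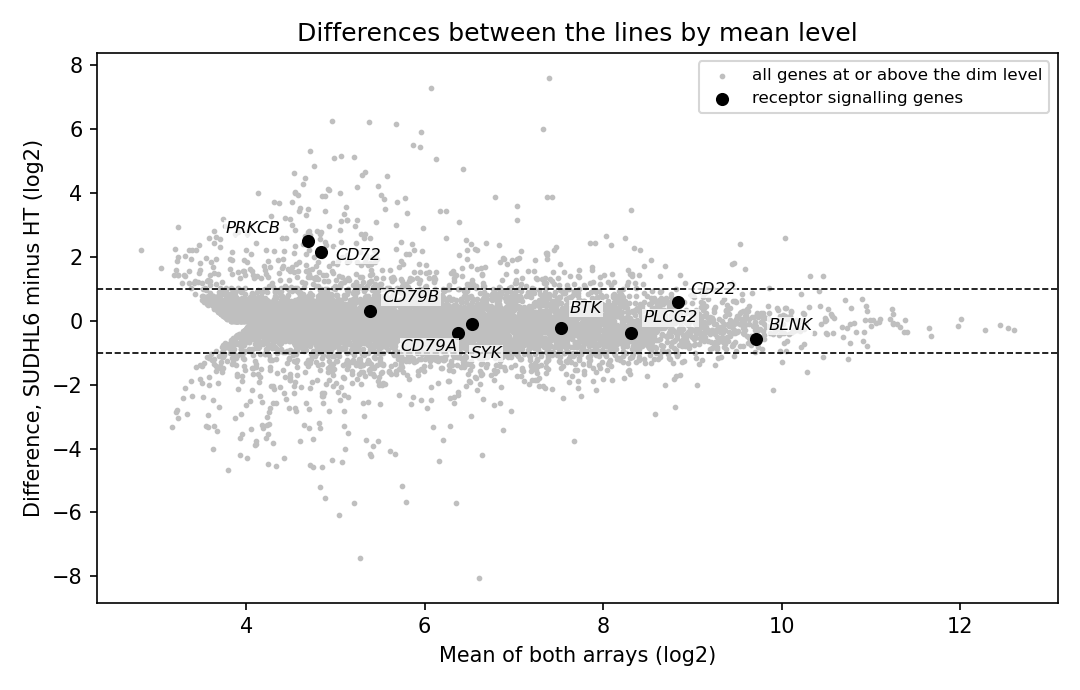
Difference, SUDHL6 minus HT on the log2 scale, against the mean of both arrays for 9405 genes at or above the dim level (grey) and the 9 receptor signalling genes (black, named). Dashed lines mark a difference of 1 in each direction. PRKCB (2.48) and CD72 (2.15) lie above the upper line and the other 7 genes lie between the lines.

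The chromosomal neighbours of PRKCB and CD72 held no gene with a difference of at least 1 in favour of SUDHL6. The same was true of the neighbours of CD79A, CD79B, SYK and PLCG2. Such genes were 5.3% of all genes that reached the dim level, so none among 10 neighbours does not set a gene apart. For each gene, the 5 nearest genes on each side that reached the dim level were taken in the order of RefSeq genes. The neighbours of PRKCB on chromosome 16 had a median of -0.28, from -1.13 to 0.37, and 9 of the 10 had the lower value in SUDHL6. The neighbours of CD72 on chromosome 9 had a median of -0.01, from -1.29 to 0.67. The nearest genes with a value on either side, CHP2 and CACNG3 for PRKCB and UNC13B and SIT1 for CD72, were below the dim level in both lines. PLCG2, with a difference of -0.38, lies on chromosome 16 too. Its neighbours had a median of -0.42, with 3 of 10 counted as higher in HT. The neighbours of all 9 genes had medians below 0, from -0.42 to -0.01. All genes above the dim level had a median of -0.05, which was 0.004 after quantile normalization and 0.008 after loess. The neighbour medians are given for the main scaling only, and the sign of the smallest may depend on it.

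**Figure D3:**
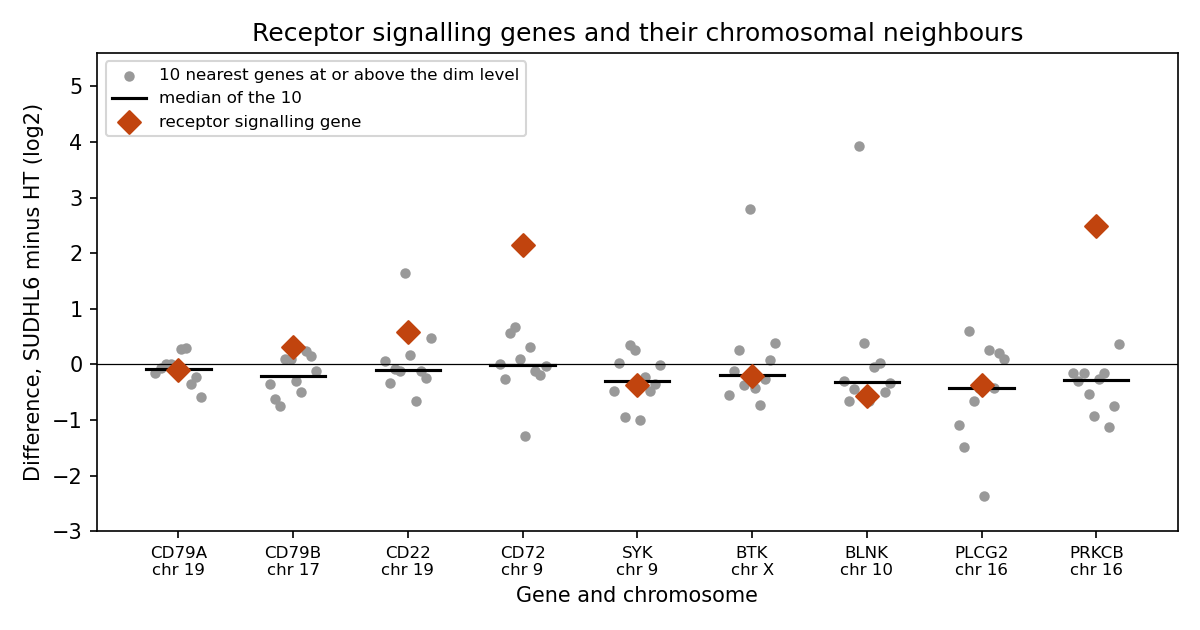
Difference, SUDHL6 minus HT on the log2 scale, for each receptor signalling gene (diamond) and the 10 nearest genes at or above the dim level (grey points, black bar at their median). PRKCB and CD72 lie above all of their neighbours, whose medians are -0.28 and -0.01.

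Other genes of the receptor pathway differed in both directions, in nearly equal numbers in the main count. In 9 lists of 166 distinct genes, 122 had a probe set of their own and 101 reached the dim level. Of the 101, 13 were higher in SUDHL6, 12 were higher in HT and 76 differed by less than 1. The 25 that differed are 24.8% of the 101, beside 12.3% of all genes above the dim level, with a median difference of 0.00 beside -0.05. The medians of the single lists, over genes at or above the dim level, ran from -0.74 for 7 protein kinase C and D genes to 0.30 for 19 genes of inhibitory receptors and their phosphatases. No test of the lists was made. Under each of 3 other scalings, 24 of the 25 genes were still counted as different and no sign turned. The exception was PRKCD. Quantile normalization and loess also counted genes anew and gave 26 each. Coreceptors and adaptors then had 5 genes higher in SUDHL6 and 1 in HT, and the calcium branch 2 and 1. The near balance of 13 and 12 thus moved towards SUDHL6 under these 2 scalings. It did so too with the median difference subtracted. Coreceptors and adaptors then had 5 genes higher in SUDHL6 and 1 in HT, and the protein kinase C and D genes 2 and 1. When values under the dim level were raised to it, 22 of the 25 were counted, and DOK1, GAB1 and LAX1, whose HT values lay below it, were not.

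Coreceptors and adaptors near the receptor held 4 genes higher in SUDHL6 and 1 higher in HT among 17 at or above the dim level. Together they are 29.4% of the 17, beside 12.3% of all genes above the dim level. BANK1, a scaffold of B cells that binds LYN and PLCG2, measured 6.21 in SUDHL6, against 2.52 in HT, at least 4.28-fold higher in SUDHL6. The exchange factor genes VAV2 and VAV3 were 2.32-fold and at least 2.52-fold higher in SUDHL6, and the docking protein gene GAB1 was at least 1.59-fold higher, a difference of 0.67 that was not counted with its HT value raised to the dim level. VAV1, the family member of blood cells, stood at 5.64 in SUDHL6 and 6.37 in HT and was not counted. It was chosen after its values were seen. CR2, a complement receptor of B cells, measured 2.52 in SUDHL6, against 5.86 in HT, at least 4.14-fold higher in HT.

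The list of inhibitory receptors and their phosphatases held 4 genes higher in SUDHL6 and 3 higher in HT among 19. Together they are 36.8% of the 19, beside 12.3% of all genes above the dim level. With values raised to the dim level the counts were 2 in SUDHL6 and 3 in HT, since DOK1 and LAX1 were no longer counted. Among the receptors, the Fc receptor-like genes FCRL3 and FCRL2 were higher in SUDHL6, FCRL3 at least 13.3-fold and FCRL2 4.29-fold, as CD72 was. FCGR2B, the inhibitory Fc receptor of B cells, went the other way, at 4.90 in SUDHL6 and 6.47 in HT. PTPN6, which encodes the SHP-1 phosphatase that CD22 and CD72 recruit, stood at 5.32 in SUDHL6 and 7.22 in HT, or 3.73-fold higher in HT. UBASH3B, a phosphatase that acts on SYK family kinases, stood at 3.87 in SUDHL6 and 5.71 in HT, and LAX1, an inhibitory adaptor, was at least 1.64-fold higher in SUDHL6.

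Among Src and Tec family kinase genes and PTPRC, 8 reached the dim level and 1 of them differed. That is 12.5% of the 8, near the 12.3% of all genes above the dim level. The gene was FYN, at 5.02 in SUDHL6 and 8.01 in HT. LYN, the Src family kinase that starts receptor signalling in B cells, stood at 9.01 in SUDHL6 and 8.29 in HT, and was named after its values were seen.

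The protein kinase C and D genes other than PRKCB were split. Of 7 at or above the dim level, PRKCA and PRKD3 were higher in SUDHL6 and PRKCD and PRKCE were higher in HT. Together they are 57.1% of the 7, beside 12.3% of all genes above the dim level. PRKCA, which like PRKCB encodes a kinase that needs calcium and diacylglycerol, measured 7.61 in SUDHL6, against 6.42 in HT, a difference of 1.19. PRKD3, a protein kinase D, stood at 8.16 in SUDHL6 and 6.82 in HT. PRKCE stood at 4.06 in SUDHL6 and 5.31 in HT. PRKCD, a calcium-independent member, measured 7.07 in SUDHL6, against 8.07 in HT, just past the threshold, and its difference of -0.95 to -0.87 under the other scalings was not counted.

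Downstream of PLCG2, 2 of 14 genes of the calcium branch (14.3%) and 3 of 16 of the diacylglycerol branch (18.8%) differed, beside 12.3% of all genes above the dim level. In the calcium branch, ITPR1, which encodes a calcium release channel, was 2.28-fold higher in SUDHL6 (5.97, against 4.78 in HT), and NFATC2, a calcium-regulated transcription factor, was 2.35-fold higher in HT. The other 12 genes of the branch at or above the dim level were under 1. In the diacylglycerol branch, IKBKB, a kinase of the NF-kB pathway, stood at 5.96 in SUDHL6 and 4.89 in HT. Its partner kinase gene CHUK stood at 6.95 in SUDHL6 and 8.08 in HT, and RASGRP1, a diacylglycerol-activated Ras exchange factor, at 5.44 in SUDHL6 and 6.68 in HT. The other 13 genes of that branch were under 1. In the PI3K branch 1 of 15 genes (6.67%) differed, TSC1, an inhibitor of mTOR signalling, at 6.46 in SUDHL6 and 7.94 in HT.

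**Figure D4:**
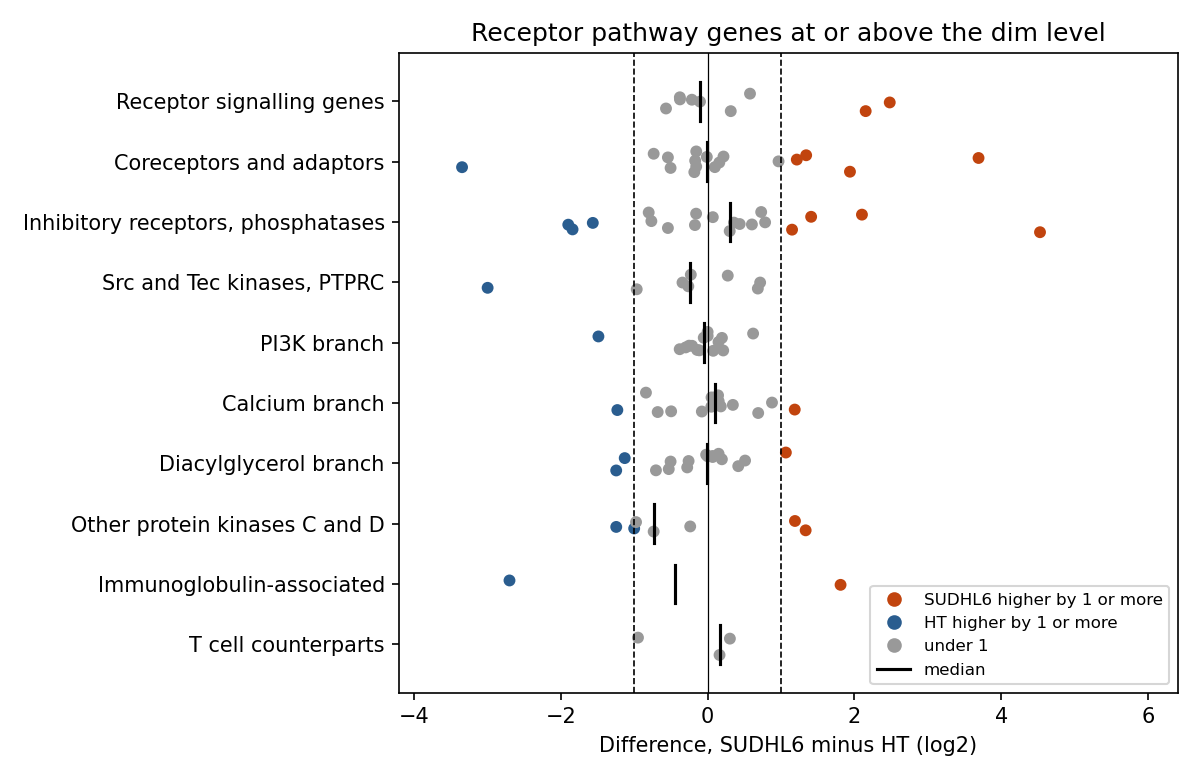
Difference, SUDHL6 minus HT on the log2 scale, for the receptor signalling genes (top row) and the genes of 9 receptor pathway lists, each point a gene at or above the dim level and each black bar the median of its row. Dashed lines mark differences of 1. The 2 points of the top row beyond the right line are CD72 and PRKCB.

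Marker genes were read to check that both arrays carried B cell RNA. Of 12 B cell markers with a value, 12 reached the dim level in SUDHL6 and 11 in HT, where CD72 did not. The 12 include CD79A, CD79B, CD22 and CD72 themselves, and among the others were MS4A1 (11.33 in SUDHL6 and 8.75 in HT) and CD74 (9.96 in SUDHL6 and 10.07 in HT). Of 9 T cell markers, 6 were below the dim level, the CD3 chain genes CD3D, CD3E and CD3G included, and CD7 (5.49 in SUDHL6 and 5.73 in HT), CD247 and CD8A (4.40 in SUDHL6 and 4.25 in HT) were above it. The T cell counterparts of the module gave no gene with a difference of at least 1 among 3 at or above the dim level. PLCG1, the phospholipase of T cells that is also widely expressed, stood at 5.48 in SUDHL6 and 5.18 in HT, and CD247, the T cell receptor zeta chain gene, at 4.74 in SUDHL6 and 5.69 in HT. Of 5 NK cell and 6 myeloid markers, 3 and 2 reached the dim level in at least 1 line, among them NKG7 (4.91 in SUDHL6 and 5.30 in HT) and CD68 (5.53 in SUDHL6 and 5.95 in HT), and none differed by at least 1.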

How the data were processed

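RNA of SUDHL6 and HT was measured on 1 exon array each. The log2 values were deposited by the authors after RMA. RMA and Affymetrix Expression Console appear in the submitters' processing notes, and the sources used here give no version, settings or genome build. RMA makes the columns alike in distribution and compresses differences of dim genes.

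Of 22011 probe sets, 14432 named 1 gene in the platform annotation, and 14404 of these were updated to symbols of a RefSeq table of GRCh38.p14. Probe sets naming several genes (2408) and those unnamed here (5171) were left out of the main comparison. Differences, counts and folds (2 to the power of the difference) were computed in Python 3.11.15 with pandas 2.3.3. A fold against a value under the dim level was taken against that level and written "at least". Counting was tested on simulated data. Scaling, the choice of probe set, the dim level and the threshold were varied.

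Members, lists and motifs were chosen with earlier results of these data known. Named are all 9 members, up to 6 genes per pathway list that were counted as different (otherwise the 2 with the highest mean), up to 3 markers per list by mean level and the genes flanking a member that differed. Outside these rules, DOK1, CD3D, CD3E and CD3G and genes on shared probe sets are also named. So are the genes said above to be named or chosen after their values were seen. With 2 arrays no likeness of pattern between genes was computed.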

Additional observations from a re-analysis of the deposited data

How the results depend on the processing

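The count of 2 receptor signalling genes that differed, PRKCB and CD72, was the same under quantile normalization, loess, subtraction of the median difference, the mean of a gene's probe sets, dim levels at the 90th and 99th percentile, no filter on dim values, values raised to the dim level, and 1.5-fold and 3-fold thresholds. It was 1 when probe sets naming several genes were admitted, since CD72 then took the probe set it shares with TESK1 and its difference was 0.38. With values raised to the dim level the difference was 1.80 for CD72 and 1.82 for PRKCB, a result of the raising itself. Of the 9405 genes at or above the dim level, 2575 differed at 1.5-fold and 500 at 3-fold, against 1155 in the main count. At 1.5-fold this is a larger share than 2 of 9, and at 3-fold a smaller one. The unchanged count of 2 therefore stands beside a changing share of all genes. Of the 101 other pathway genes at or above the dim level, 44 differed at 1.5-fold and 10 at 3-fold, against 25. The median of the 9 genes was 0.01 after quantile normalization and 0.02 after loess, against -0.10. No paired analysis was possible because each line has 1 array. The number of arrays, 1 per line, limits the precision of every value.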

Other observations

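The immunoglobulin-associated list had 2 genes at or above the dim level, and they differed in opposite directions. JCHAIN, which joins immunoglobulin polymers, stood at 10.37 in SUDHL6 and 8.56 in HT, and VPREB3, a gene of the surrogate light chain family, at 7.45 in SUDHL6 and 10.15 in HT. A probe set naming the immunoglobulin kappa constant gene IGKC with 6 other kappa entries was close in the 2 lines, at 11.51 in SUDHL6 and 11.33 in HT. EBF1 and POU2AF1, a B cell transcription factor and the coactivator of octamer-binding factors, were 3.12-fold and 2.62-fold higher in HT, and were named after their values were seen. Of 5 plasma cell markers, 4 reached the dim level and 2 were higher in SUDHL6, TNFRSF17 (7.16 in SUDHL6 and 5.90 in HT) and IRF4 (6.65 in SUDHL6 and 3.93 in HT, below the dim level there). XBP1 stood at 6.43 in SUDHL6 and 6.61 in HT. Of 6 germinal centre markers measured, 5 were at or above the dim level, with 1 higher in each line. Those counted are 50% of the 4 plasma cell markers and 40% of the 5 germinal centre markers. The share of all genes above the dim level was 12.3%. Of the germinal centre markers, MME, BCL6 and GCSAM had the highest means, and GCSAM was 3.27-fold higher in SUDHL6. The marker higher in HT was SERPINA9, at 3.96 in SUDHL6 and 8.35 in HT, or 20.8-fold. SERPINA9 was named after its values were seen.

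Of 46 pathway and marker genes without a probe set of their own, 13 were named on 17 probe sets shared with other genes, and 2 of those probe sets differed by at least 1. The probe set shared by SIGLEC10 and SIGLEC12, inhibitory lectins related to CD22, stood at 4.22 in SUDHL6 and 8.03 in HT. The probe set shared by SOS1, a Ras exchange factor, and NKAP stood at 8.17 in SUDHL6 and 7.11 in HT. These values cannot be assigned to 1 gene.

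Probe sets that name the same gene can differ, as the CD72 probe set and the one shared with TESK1 did. Among genes counted as different, 37 further probe sets shared with other genes reached the dim level. Of these, 26 (70.3%) had the same direction as the gene's own probe set and 6 (16.2%) also differed by at least 1. Of 15 further probe sets of a gene's own, 15 had the same direction and 7 (46.7%) differed by at least 1. The set shared by TESK1 and CD72 had the same direction and differed by less than 1.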
